A study of Mus musculus with 3 samples.

Results

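The receptor tyrosine kinases other than Ret were examined in ureteric duct cells of the mouse embryo at 10.5 days post coitum (Theiler stage 18). The group was defined by gene family: 31 genes encoding receptor tyrosine kinases, with Ret and the Fgf, Eph, Vegf and Tie receptors left out. All 31 had a probe set of their own among the 19938 genes with a single-gene probe set, 30 through 1 probe set and Insr through more than 1. The 3 samples form 1 group, numbered replicates 1 to 3, and are called arrays 1 to 3 here. Each held cells of 1 duct, not pooled, from CD-1 embryos of unrecorded sex carrying the transgene Tg(Hoxb7-EGFP)33Cos, in which the Hoxb7 promoter drives a green fluorescent protein in the nephric duct and its derivatives. The duct was microdissected, dissociated with trypsin and sorted by fluorescence, and its RNA was amplified in 1 round before hybridisation to 1 Affymetrix array per sample. The labels do not say whether the samples came from separate litters, so p-values cover no more than the variation among the 3 samples, which may be technical. With no second group, the question open to the data is which of these receptors the sorted cells express above the background of the array.

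Receptor tyrosine kinases are single-pass membrane proteins whose extracellular part binds a ligand and whose intracellular kinase then phosphorylates tyrosines, on the partner receptor and on docking proteins. From there signals run mainly to the Ras and ERK cascade and to PI3 kinase. In the kidney the family is best known for Ret, which receives GDNF from the mesenchyme and drives outgrowth of the ureteric bud. Met and the EGF receptor are known to support branching beside it, and Ros1 marks the bud tip.

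Values are log2 signals as deposited. Background was set on each array at the 95th percentile of 1212 probe sets for olfactory and vomeronasal receptors, genes of sensory neurons, which gave cutoffs of 5.69, 5.73 and 5.70 on arrays 1, 2 and 3. A gene is called above background where limma's one-sided test of its signal against these cutoffs gave a Benjamini-Hochberg adjusted p under 0.05 over all single-gene probe sets. Of the 31 kinase genes, 13 were above background (41.9%), against 56.2% of all genes. Their median lay at -0.03 log2 units from the mean cutoff, against 0.33 for all genes. At the 99th percentile 8 of the 31 passed (25.8%, against 36.1% of all genes), and a cutoff 1 log2 unit higher than the main one again left 8 (25.8%, against 28.4%). At the looser cutoffs the count was 18 (58.1%, against 65.4%) at the 90th percentile and 25 (80.6%, against 75.3%) at the 30th percentile over every probe set. The kinase genes' share was thus below that of all genes at 4 of these 5 cutoffs and above it at the loosest, and the differences were not tested. The 31 genes were chosen with earlier results of these data known, so their shares are descriptions. Of the 31, 15 read above the cutoff on all 3 arrays and 16 below it on all 3, so 0 crossed the cutoff between arrays.

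The genes called in the main test and under every alternative tried were Insr, Ryk, Met, Erbb2, Igf1r, Ros1, Erbb3 and Kit. The other 5 called, Ptk7, Ddr1, Ror2, Tyro3 and Ltk, exceeded the mean cutoff by at most 0.57 log2 units and did not pass at the stricter cutoffs. Probe sets differ in affinity, so a signal is read against background and does not rank the transcripts of different genes. An identical deposited value on all 3 arrays was found for 21 of the 31 genes (67.7%), against 50.8% of all genes. These are marked "on each array" below. No spread can be given for them, and their p-values rest only on differences between the cutoffs and on moderation, and are too small. A further 7 were tied on 2 of the arrays. The fit without array 3 gave every gene a common spread, SD 0.19, against a prior SD of 0.035 in the main fit. A call of such a tied gene lost without array 3 goes with this larger spread, as its own value is the same on each array.

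**Figure D1:**
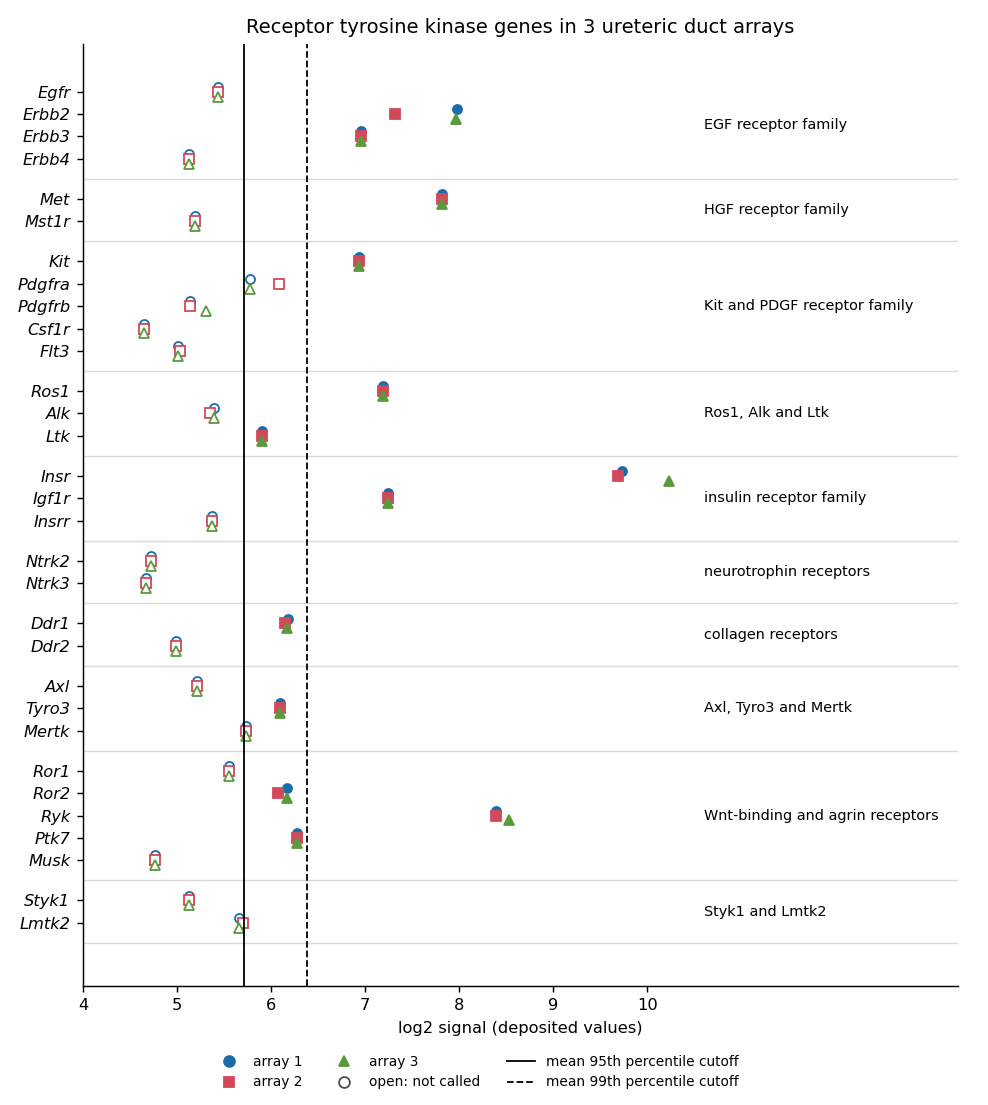
Log2 signal (x axis) of the 31 receptor tyrosine kinase genes, grouped by family, with 1 point per array. Filled points mark the 13 genes called above background, and open points the 18 not called. The solid and dashed lines are the mean 95th and 99th percentile cutoffs, 5.71 and 6.38. Insr, Ryk, Met, Erbb2, Igf1r, Ros1, Erbb3 and Kit lie to the right of the dashed line on all 3 arrays.

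The sorted cells were checked against cell type markers. All 12 duct markers were above background, with Gata3, a transcription factor required for the duct, at 9.43 ± 0.20 (SD, n = 3) Pax2, another, at 8.79 ± 0.03, Calb1, a calcium-binding protein, at 11.71 ± 0.03, the keratin gene Krt8 at 10.56 ± 0.37 and, lowest, Wnt9b at 6.96 (on each array). Endothelial markers also passed, in 10 of 11 cases, and averaged 7.93, 7.24 and 7.94 over the list on arrays 1, 2 and 3. Among them Emcn was at 10.07 ± 0.69, Cdh5 at 9.10 ± 0.58, Pecam1 at 7.50 ± 0.51 and Sox17, which did not pass, at 5.80 ± 0.05. Of the other lists, 4 of 8 pericyte, 3 of 11 mesenchymal, 1 of 9 macrophage, 4 of 8 blood progenitor, 1 of 5 red cell, 2 of 6 neural crest, 1 of 7 germ cell and 2 of 6 muscle precursor markers passed, against 56.2% of all genes. The red cell list averaged 7.19 on array 1 against 5.66 and 5.68 on arrays 2 and 3. The embryonic globin gene Hbb-y was at 10.02, 5.31 and 5.45 and Hba-x at 8.89, 5.97 and 5.84, neither called. No other gene of that list was highest on array 1, and Klf1 was lowest of the list at 5.26 (on each array). No kinase gene had its single lowest value on array 1, and 2 had their single highest there. In sorted bulk samples, fewer cells of a type and less RNA per cell cannot be told apart.

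**Figure D2:**
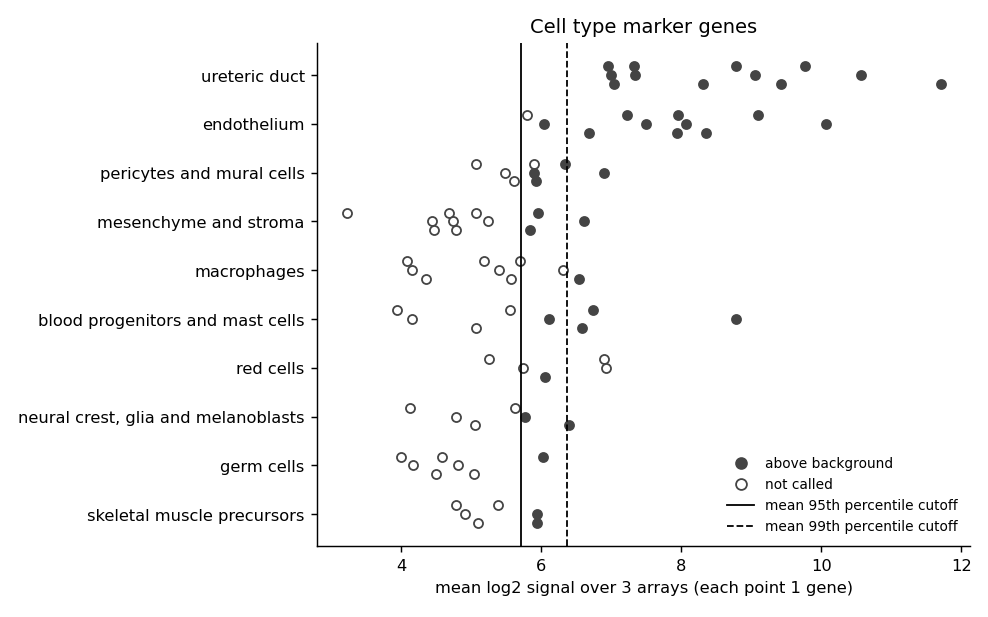
Mean log2 signal over the 3 arrays (x axis) of cell type marker genes, 1 point per gene, by list. Filled points were called above background. The 12 duct markers lie between 6.96 and 11.71, all right of the dashed 99th percentile line, while mesenchymal markers reach down to 3.23.

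Promoter sequences of Met, Ryk, Erbb2 and Ros1 are shown because these genes passed at every cutoff and differ in CpG content. Each runs 5′ to 3′ over the 250 bases before the RefSeq start site (GRCm38.p6), and capitals mark CpG dinucleotides.
Met, chr6:17463707-17463956, plus strand: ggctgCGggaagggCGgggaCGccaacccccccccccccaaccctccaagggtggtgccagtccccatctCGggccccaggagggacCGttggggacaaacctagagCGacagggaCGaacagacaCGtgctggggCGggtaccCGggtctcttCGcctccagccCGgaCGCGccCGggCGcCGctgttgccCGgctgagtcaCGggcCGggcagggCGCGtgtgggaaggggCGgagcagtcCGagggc
Ryk, chr9:102834670-102834919, plus strand: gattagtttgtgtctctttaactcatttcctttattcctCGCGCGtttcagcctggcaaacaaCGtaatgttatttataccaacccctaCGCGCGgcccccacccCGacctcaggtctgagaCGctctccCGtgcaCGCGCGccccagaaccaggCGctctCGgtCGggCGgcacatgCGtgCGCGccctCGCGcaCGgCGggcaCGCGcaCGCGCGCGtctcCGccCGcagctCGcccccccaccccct
Erbb2, chr11:98412234-98412483, plus strand: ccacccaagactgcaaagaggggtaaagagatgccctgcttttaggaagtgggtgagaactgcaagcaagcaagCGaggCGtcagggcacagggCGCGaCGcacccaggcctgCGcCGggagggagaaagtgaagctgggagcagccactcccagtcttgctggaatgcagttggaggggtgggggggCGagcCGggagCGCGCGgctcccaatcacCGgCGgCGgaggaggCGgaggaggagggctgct
Ros1, chr10:52195245-52195494, minus strand: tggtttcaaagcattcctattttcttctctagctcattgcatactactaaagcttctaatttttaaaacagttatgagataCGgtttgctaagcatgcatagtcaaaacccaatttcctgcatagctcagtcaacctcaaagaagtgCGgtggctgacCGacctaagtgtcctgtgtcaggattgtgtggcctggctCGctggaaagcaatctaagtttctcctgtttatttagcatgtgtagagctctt
The upstream stretch held 24 CpG dinucleotides at Met, 33 at Ryk, 16 at Erbb2 and 4 at Ros1. Its GC content was 74.0% at Met, 65.2% at Ryk, 66.0% at Erbb2 and 41.6% at Ros1. Ros1 thus stands apart from the other three in these letters, with an AT-rich start region and hardly any CpG.

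Promoter windows of 300 bases (250 before the start and 50 after) were found in the RefSeq table for 24 of the 31 genes. Erbb3, Insr, Insrr, Ntrk3, Styk1, Pdgfrb and Csf1r had no entry. For the 3 genes with several starts, Ddr1, Kit and Mst1r, the start with the most CpG was taken. The 11 genes called above background had a median of 31 CpG per window (range 4 to 48), and the 13 not called had a median of 14 (range 2 to 28). Over all genes with a window, the medians were 22 for those called and 6 for those not called, so the kinase genes followed the direction of the whole table. These figures are descriptions, with no test. Among the called genes Igf1r had the most, with 48 CpG, and Ros1 the fewest. The letters GGGCGG (GC box, either strand) occurred in 15 of the 24 windows, against 35.7% of all 32851 windows. CCAAT (either strand) occurred in 4 of 24, against 37.4%, and TATAAA (either strand) in 3 of 24, against 13.6%. The 24 windows took for each gene only the start with the most CpG, while the 32851 took every start. The sets are therefore unlike, and the shares are not a direct comparison.

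**Figure D3:**
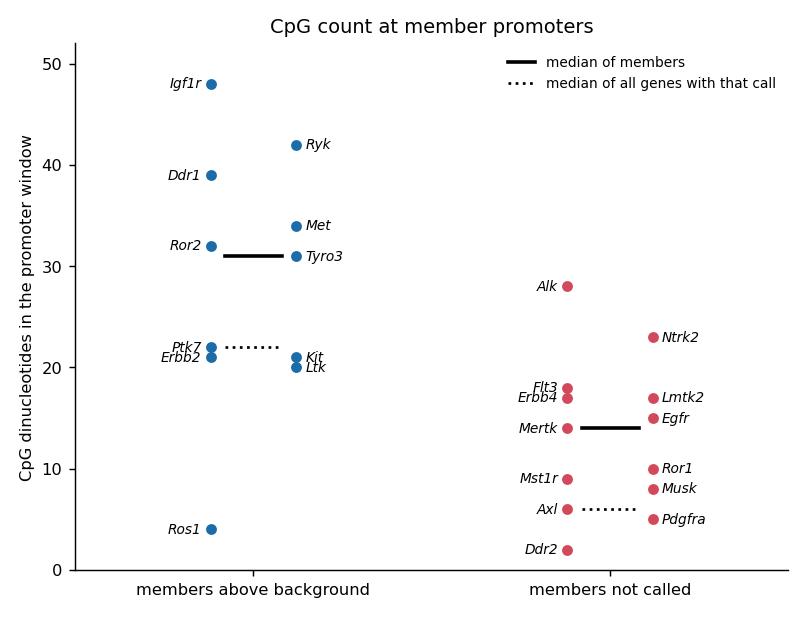
Number of CpG dinucleotides in the 300-base promoter window (y axis) for the 24 receptor tyrosine kinase genes with a RefSeq entry, split by whether the gene was called above background. Solid bars are the medians of these genes (31 and 14), dotted bars those of all genes with the same call (22 and 6). Ros1, with 4 CpG, lies apart from the other called genes.

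In the EGF receptor family 2 of 4 genes were above background, against 56.2% of all genes. The counts by family here and below rest on few genes, and their differences from that share were not tested. Erbb2, the co-receptor that binds no ligand of its own, read 7.97, 7.32 and 7.97 on arrays 1, 2 and 3. All 3 values were above the cutoff, and array 2 was the low one. Its mean was 2.05 log2 units above the mean cutoff (SE 0.18, n = 3; limma, Benjamini-Hochberg adjusted p = 0.00136), and 1 of the 1212 background probe sets had a higher mean. Erbb3, the neuregulin receptor with an impaired kinase that signals through Erbb2, read 6.96 on each array, 1.25 log2 units above the mean cutoff (limma, adjusted p = 9.36e-06), with 3 background probe sets higher. Egfr, the receptor of EGF and TGF-alpha, read 5.44 on each array and did not pass, with 113 background probe sets higher. Erbb4, a further neuregulin receptor, read 5.12 on each array and did not pass either. Egfr passed only at the looser cutoffs, the 90th percentile of receptor probe sets and the 30th percentile of all probe sets.

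The Erbb2 signal on array 2 lay at -0.65 log2 units from the mean of the other arrays. On the same array the endothelial list lay at -0.70 from the mean of the others, with 10 of its 11 genes lowest there, and the duct list at -0.12. The part of the endothelial cells in the Erbb2 difference was not tested. Without array 2 Erbb2 lay 2.27 log2 units above the cutoff. Beside Erbb3, the neural crest marker Sox10 read 6.40 ± 0.03 and the pigment cell gene Pmel 5.77 (on each array), and both passed in the main test. Neither passed at the 99th percentile. The Pmel call was also lost without array 1, without array 3, against olfactory receptors only and with the spread of the untied. Foxd3 at 5.62 and Elavl4 at 4.13, each on each array, did not pass. The mean of that list was 5.28, 5.31 and 5.29 on arrays 1, 2 and 3, and the part of such cells was not tested. A probe set annotated to both Erbb2 and Sympk was not used, and read 5.03 on each array.

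Ligands of this family passed in 4 of 10 measured cases, against 56.2% of all genes. Tgfa, a ligand of Egfr, read 7.03, 6.86 and 6.86 on arrays 1, 2 and 3, and Hbegf, which binds Egfr and Erbb4, read 6.79, 6.79 and 6.66. Both genes were above the 99th percentile cutoff while Egfr itself was not called. Nrg2 at 6.08 and Btc at 5.85, each on each array, also passed, Nrg2 being the only neuregulin called. The Btc call was lost without array 3 and with the spread of the untied. Nrg1 at 5.21, Nrg3 at 4.60, Nrg4 at 4.47, Epgn at 4.81, Ereg at 3.85, each on each array, and Egf at 5.70 ± 0.04 did not. Of the regulators, Errfi1, an inhibitor of EGF receptor kinases, passed at 7.24 ± 0.07. Lrig1, which promotes turnover of these receptors, passed at 5.84 (on each array) in the main test. It did not pass at the 99th percentile, without array 3 or with the spread of the untied.

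Of the HGF receptors, Met was called and Mst1r was not. Met, the receptor of hepatocyte growth factor, read 7.81 on each array, 2.11 log2 units above the mean cutoff (limma, Benjamini-Hochberg adjusted p = 3.73e-06). Only 1 of 1212 background probe sets had a higher mean, and no other probe set held this value on all 3 arrays. Mst1r, the receptor of macrophage-stimulating protein, read 5.19 on each array. The ligands showed the opposite calls in the main test. Hgf, a product of mesenchyme in many organs, read 4.56 on each array and did not pass. Mst1 read 5.90 on each array, a value shared with 5 other probe sets, and passed. The Mst1 call was lost at the 99th percentile, without array 3 and when tied probe sets were given the spread of the untied. The Met partner genes Plxnb1 and Plxnb2 passed at 7.04 ± 0.10 and 6.73 ± 0.09, and Cd44 did not, at 4.85 (on each array).

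Of the Kit and PDGF receptor family 1 of 5 genes passed, against 56.2% of all genes. Kit, the receptor of stem cell factor, read 6.93 on each array, 1.22 log2 units above the mean cutoff (limma, adjusted p = 9.81e-06), with 4 background probe sets higher. Its ligand gene Kitl read 8.92, 8.94 and 8.67 on arrays 1, 2 and 3, 3.13 log2 units above the mean cutoff and well clear of it on all arrays. Kit is also known from germ cells, blood progenitors and mast cells. The germ cell markers Ddx4, Dazl and Prdm1 read 4.00, 4.17 and 5.04, each on each array and not called, and Nanos3 passed at 6.04 (on each array), a value shared with 64 other probe sets. The blood markers Ptprc and Spi1 read 4.16 and 5.55, each on each array and below background. Of the blood progenitor list 4 of 8 passed, against 56.2% of all genes. Its 2 highest, Cd34 at 8.78 ± 0.29 and Myb at 6.74 ± 0.24, were among them. The mast cell gene Cpa3, its lowest at 3.94 on each array, did not pass. Cd34 lay at -0.51 log2 units on array 2 from the mean of the others, where the endothelial list lay at -0.70. The mean of the blood progenitor list was 5.86, 5.86 and 5.88 on arrays 1, 2 and 3, and that of the germ cell list 4.70, 4.81 and 4.70. The part of blood progenitors in the Kit signal was not tested.

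The PDGF receptors mark mesenchyme and mural cells. Pdgfra read 5.78, 6.08 and 5.78 on arrays 1, 2 and 3, above the cutoff each time but highest on array 2, and was not called (limma, adjusted p = 0.0849). Without array 2 its distance from the cutoff fell to 0.08 log2 units from 0.17, yet it passed (limma, adjusted p = 0.0198), the 2 remaining values being tied. Pdgfrb read 5.14, 5.14 and 5.31 and was below the cutoff on all arrays. Their ligand genes Pdgfa, at 7.55, and Pdgfc, at 8.87, each on each array, passed at every cutoff, while Pdgfb at 5.45 and Pdgfd at 4.01 did not pass. Both ligand genes were thus called where Pdgfra and Pdgfrb were not. Of the mesenchymal markers 3 of 11 passed, against 56.2% of all genes. Osr1 at 4.78, Six2 at 5.07 and Lum at 3.23 did not pass, while Col1a2 at 6.61 and Twist1 at 5.96 did, each on each array. Of the mural markers 4 of 8 passed, against the same 56.2%. Rgs5 at 5.07 (on each array) did not pass, and Notch3 at 6.89 (on each array), Abcc9 at 6.35 ± 0.08 and Cspg4 at 5.93 ± 0.04 did. On arrays 1, 2 and 3 the mesenchymal list averaged 5.00, 5.01 and 5.00 and the mural list 5.86, 5.78 and 6.03, and the part of such cells in the Pdgfra signal was not tested. Csf1r, the macrophage colony-stimulating factor receptor, read 4.65 on each array and Flt3, a receptor of early blood cells, 5.01, 5.03 and 5.01. Neither passed under any alternative. Of the macrophage markers, Adgre1 read 4.09 on each array, and Cd68, at 5.71, 6.60 and 6.60, did not pass. Cx3cr1 passed at 6.54 on each array, a value shared with 32 other probe sets, and did so at the 99th percentile too. Of their ligands, Il34 passed at 6.001, and Csf1 at 5.47 and Flt3l at 5.16 did not, each on each array.

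Of the group of Ros1, Alk and Ltk, 2 of 3 genes passed, against 56.2% of all genes. Ros1, an epithelial receptor known from the bud tip and the epididymis, read 7.19 on each array, 1.48 log2 units above the mean cutoff (limma, Benjamini-Hochberg adjusted p = 6.70e-06), with 3 background probe sets higher. Its value was held by 8 other probe sets on all 3 arrays, which was true of no other gene among the 8 called throughout. Nell2, its ligand in the epididymis, read 4.69 on each array and did not pass. Ptpn6, a phosphatase known to act on Ros1, read 6.51, 6.69 and 6.58 and passed. Ltk, a close relative of Alk, read 5.90 on each array, a value shared with 71 other probe sets. It passed by 0.20 log2 units (limma, adjusted p = 0.000873), but not without array 3 (adjusted p = 0.142) or when tied probe sets were given the median spread of the untied (adjusted p = 0.0539). Without array 3 Ltk still lay 0.19 log2 units above the cutoff, and the spread of the fit was larger. Alk, a receptor of the nervous system, read 5.39, 5.35 and 5.39 and did not pass.

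The heparin-binding growth factors Mdk and Ptn, named as Alk ligands, read far above background. Mdk was at 10.49, 10.32 and 10.45 and Ptn at 8.94, 9.49 and 9.22 on arrays 1, 2 and 3. The more selective ligand genes Alkal1, at 3.26 ± 0.03, and Alkal2, at 5.74 (on each array), did not pass.

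In the insulin receptor family 2 of 3 genes passed, against 56.2% of all genes. Insr, the insulin receptor, read 9.74, 9.69 and 10.23 on arrays 1, 2 and 3, all far above the cutoff, with array 3 the high one by 0.52 log2 units over the mean of the others. Its mean was 4.18 log2 units above the mean cutoff (SE 0.14, n = 3; limma, Benjamini-Hochberg adjusted p = 0.000104), and 0 of the 1212 background probe sets had a higher mean. The other Insr probe set read 6.45 on each array, and it was also called. The 2 probe sets of this gene thus differed widely in signal while giving the same call in the main test. At the cutoff 1 log2 unit higher, with a mean of 6.71, the lower probe set did not reach it. The Insr call there rests on the higher probe set alone. Igf1r, the receptor of insulin-like growth factors, read 7.25 on each array and passed (limma, adjusted p = 6.31e-06). Insrr, an alkali-sensing relative found in adult kidney, read 5.37 on each array and did not pass.

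All 3 measured ligands of the family passed, against 56.2% of all genes. Igf2, the main insulin-like growth factor of the embryo, read 10.19, 9.55 and 10.19, lowest on array 2 by 0.64 log2 units. Erbb2 and the endothelial list were also low on that array, and a link between them and Igf2 was not tested. Igf1 read 6.19, 6.19 and 6.82 and Ins2 6.19 on each array, and neither passed at the 99th percentile. Igf1 did not pass without array 2 either. Igf2r, which clears IGF2 from the surface, read 8.98, 8.64 and 8.64, and Grb10, an imprinted inhibitor of Insr and Igf1r, read 9.74, 9.30 and 9.01. Docking proteins were nearer background: Irs2 passed at 6.70 ± 0.11, and Irs1 at 6.37 and Irs4 at 6.14, each on each array, passed but not at the 99th percentile. The other Irs1 probe set averaged 5.43 and was not called.

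**Figure D4:**
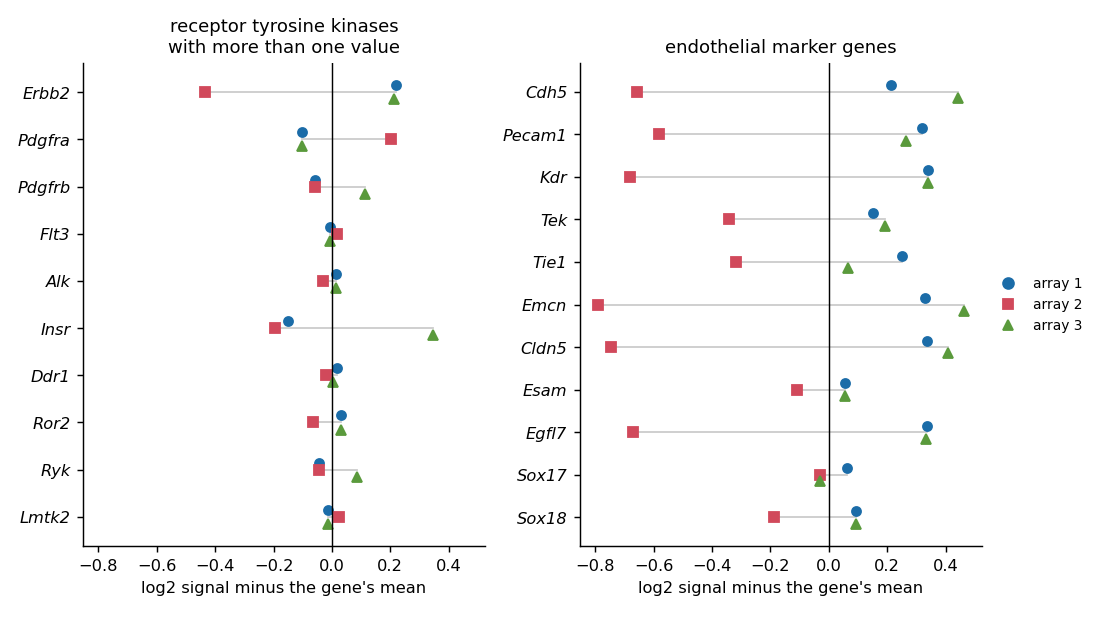
Log2 signal on each array minus the gene's mean over the 3 arrays (x axis), for the 10 receptor tyrosine kinase genes that did not hold a single value and for the 11 endothelial markers. Erbb2 is low on array 2, as are 10 of the 11 endothelial markers, while Insr is high on array 3 and Pdgfra is high on array 2.

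Among receptors that bind Wnt proteins or agrin, 3 of 5 passed, against 56.2% of all genes. Ryk, a pseudokinase Wnt co-receptor, read 8.39, 8.39 and 8.52, 2.73 log2 units above the mean cutoff (SE 0.04, n = 3; limma, adjusted p = 1.42e-05), with 0 background probe sets higher. Ptk7, a pseudokinase of planar cell polarity, read 6.28 on each array, a value shared with 21 other probe sets, and Ror2, a receptor of Wnt5a, 6.17, 6.07 and 6.17. Both passed in the main test, with 15 and 23 background probe sets higher, and not at the 99th percentile. Ror1, the relative of Ror2, at 5.55 and Musk, the agrin receptor of muscle, at 4.77, each on each array, did not pass. The ligand gene Wnt5a read 6.43 on each array, a value shared with 14 other probe sets, and passed, but not at the 99th percentile. Agrn, also a component of epithelial basement membranes, read 7.40 on each array and passed at every cutoff. The Musk partner genes Lrp4, at 6.24, and Dok7, at 5.98, each on each array, passed in the main test but not at the 99th percentile. The muscle precursor markers Myod1 and Pax7 passed likewise, both at 5.94, and Myf5 at 4.91 and Chrna1 at 4.78 did not pass. That list averaged 5.34 on each array.

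Of the collagen receptors, Ddr1, typical of epithelia, passed, and Ddr2, typical of mesenchyme, did not. Ddr1 read 6.18, 6.14 and 6.17, all within 0.04 log2 units and 0.45 above the mean cutoff (limma, adjusted p = 0.000234), with 22 background probe sets higher. Ddr2 read 4.99 on each array. All 5 collagen genes listed as ligands passed, against 56.2% of all genes. Among them were Col4a1 of basement membranes at 7.13 and Col1a1 at 6.75, each on each array.

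Of the receptors for Gas6 and protein S, Tyro3 passed at 6.09 on each array, a value shared with 33 other probe sets, and 25 background probe sets were higher. Mertk, known for clearance of dead cells, read 5.73 on each array, 0.02 log2 units above the mean cutoff, and was not called (limma, adjusted p = 0.208). Axl, the remaining receptor of the trio, read 5.21 on each array and did not pass. Gas6, at 5.78 on each array, and Pros1, at 6.04, 6.34 and 6.37, passed but not at the 99th percentile. The neurotrophin receptor genes Ntrk2, at 4.73, and Ntrk3, at 4.67, each on each array, passed under no alternative. Of their ligands Bdnf did not pass, at 5.49, and Ntf5 passed, at 5.78, each on each array. Gas6 and Ntf5 held the same value, shared with 80 other probe sets. Both calls were lost without array 1, without array 3, against a background of olfactory receptors only and when tied probe sets were given the spread of the untied. Ngfr, the shared low-affinity receptor, passed at 6.51 ± 0.09.

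Styk1, a kinase-like membrane protein, read 5.12 on each array and did not pass. Exactly this value was held by Erbb4 too, and by 109 other probe sets in each case. Lmtk2, an endosomal kinase, read 5.66, 5.70 and 5.66, just below the cutoff on all 3 arrays, and was not called. Of the 31 kinase genes, 17 shared their values on all 3 arrays with at least 1 other probe set (54.8%, against 41.5% of all genes). For Egfr this held for 103 other probe sets and for Ntrk3 also for 103. Whether shared values reflect the gene's own transcript was not tested.

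Over the whole ligand list 24 of 39 measured genes passed (61.5%, against 56.2% of all genes), 13 at the 99th percentile (33.3%, against 36.1%) and 9 at the cutoff 1 log2 unit higher (23.1%, against 28.4%). Those 9 were Kitl, Pdgfa, Pdgfc, Mdk, Ptn, Igf2, Col2a1, Col4a1 and Agrn, of which Col2a1 shared its values with 21 other probe sets, Agrn with 7 and Col4a1 with 3. Receptor and ligand were thus both called at the raised cutoff for Kit with Kitl and for Insr and Igf1r with Igf2. For Insr this holds for its higher probe set only. For Met, Ros1, Ryk, Erbb2 and Erbb3, which were also called there, no listed ligand was.

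**Figure D5:**
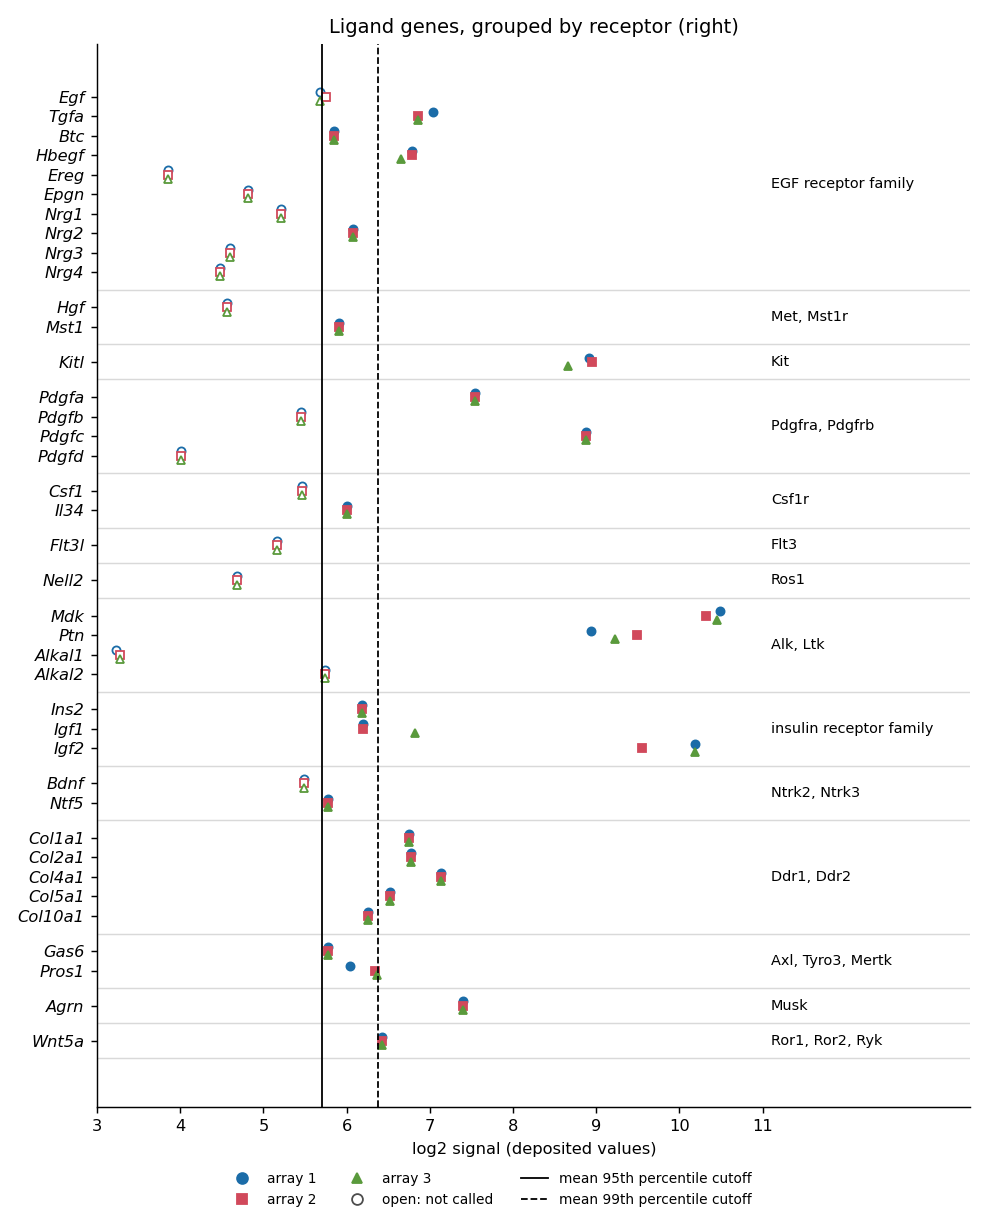
Log2 signal (x axis) of the 39 measured ligand genes, grouped by the receptor they bind, with 1 point per array. Filled points mark the 24 genes called above background; the solid and dashed lines are the mean 95th and 99th percentile cutoffs. Kitl, Pdgfa, Pdgfc, Mdk, Ptn and Igf2 lie right of the dashed line, and Hgf, Nell2 and Nrg1 left of the solid one.

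Regulators and effectors passed in 35 of 38 measured cases (92.1%, against 56.2% of all genes), and 23 still did at the 99th percentile (60.5%, against 36.1%). The ligand and regulator lists were chosen with earlier results of these data known, so their shares are descriptions and not a test. Of the inhibitors, phosphatases and ubiquitin ligases 13 of 14 passed. They included Cbl, read at 7.79, 7.79 and 7.98, and Cblb at 8.34 on each array, ubiquitin ligases that send activated receptors to degradation. The phosphatase genes Ptpn1, at 7.05 on each array, and Ptprj, at 7.57 ± 0.23, passed at every cutoff. Lrig3 was the exception, at 6.06, 5.81 and 5.51, and straddled the cutoff. Of the PI3 kinase branch 8 of 8 passed, with Pik3r3, a regulatory subunit, at 9.02 ± 0.32 and Pik3ca, a catalytic subunit, at 7.37 ± 0.03. The sheddase genes Adam10, at 8.45 ± 0.03, and Adam17, at 8.28 ± 0.12, which release EGF family ligands, both passed. Cd44, Lrig3 and Dok1, the last at 5.48 on each array, were the 3 that did not pass.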

How the data were processed

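RNA of 3 ureteric duct samples was measured on 1 array each. The deposited table gives 35557 probe sets as log2 signals, an inference from their range of 1.90 to 14.2. The authors' tool is Affymetrix Expression Console, per the submitters' processing notes. The sources used here give neither its algorithm, version, filters and normalization nor the array's genome build. Probe sets were named by the platform annotation. Those with 1 symbol (21789) were kept, 1621 with several were left out, and the probe set of highest mean stood for a gene. The distance of each signal from its array's cutoff went into an intercept model (limma 3.58.1 under R 4.3.3, empirical Bayes). The model was tried on simulated data without tied probe sets, so that trial does not cover the tied values found here. The prior had 1.13 degrees of freedom. Background probe sets comprised 1035 olfactory and 177 vomeronasal ones. The members and lists were chosen with earlier results of these data known. The rule for named genes took every member, any measured ligand or regulator, and of each marker list the 2 highest, the lowest and the first 2. No batch is recorded. Of 42 ligands 39, and of 40 regulators 38, had a probe set of their own. Promoter sequences are RefSeq's (GRCm38.p6). Alternatives changed the cutoff, the background probe sets, the probe set per gene, the spread or the arrays used. The number of arrays limits the precision.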

Additional observations from a re-analysis of the deposited data

How the results depend on the processing

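The number of kinase genes above background followed the cutoff. It was 13 in the main test, 8 at the 99th percentile, 8 at a cutoff 1 log2 unit higher, 18 at the 90th percentile (58.1%, against 65.4% of all genes) and 25 when the cutoff was the 30th percentile over every probe set (80.6%, against 75.3%). The ligand count went from 24 to 13 and 9 at those stricter cutoffs, the regulator count from 35 to 23 and 18, and that of all genes from 11203 to 7190 and 5653. Leaving out an array gave 12 to 14 kinase genes, 20 to 23 ligands, 32 to 35 regulators and 10363 to 11007 genes. The fit without array 3 gave all genes a common spread. No paired analysis was possible because there is 1 group.

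Single genes that crossed the cutoff are given by their distance from it in log2 units. At the 99th percentile these were Ltk at -0.47, Ddr1 at -0.22, Tyro3 at -0.29, Ror2 at -0.24 and Ptk7 at -0.10. At the cutoff 1 log2 unit higher, Ltk lay at -0.80, Ddr1 at -0.55, Tyro3 at -0.62, Ror2 at -0.57 and Ptk7 at -0.43. At the 90th percentile, Egfr at 0.038, Ror1 at 0.15 and Lmtk2 at 0.28 came to lie above it. At the 30th percentile over every probe set, Egfr lay at 0.46, Erbb4 at 0.14, Mst1r at 0.21, Pdgfrb at 0.22, Alk at 0.40, Insrr at 0.39, Axl at 0.23, Ror1 at 0.57, Styk1 at 0.14 and Lmtk2 at 0.69. These changes follow from the height of the cutoff itself. Olfactory receptors alone and an intensity trend in the prior changed the call of 0 of the 31 genes. Signal over background limits the calls of Ptk7, Ddr1, Ror2, Tyro3 and Ltk, which ended at the stricter cutoffs.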
